A study of Danio rerio with 13 samples.

Results

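The genes cd4-1, cd8a, cd8b and cd28 encode receptors of the T cell surface. Each was taken as the row of the count table whose Ensembl identifier carries that zebrafish symbol, in any letter case. All 4 symbols matched 1 identifier each among the 32105 genes of the table, namely ENSDARG00000070668 for cd4-1, ENSDARG00000044797 for cd8a, ENSDARG00000058682 for cd8b and ENSDARG00000095070 for cd28. The 4 genes were described across acute lymphoblastic leukemias (ALL) of zebrafish from the rag2:hMYC;lck:eGFP double transgenic line. In these fish human MYC is driven by the promoter of rag2, a recombinase gene of lymphoid precursors, and a green reporter is driven by the promoter of lck, a kinase gene of T cells. Green cells were sorted from the whole body of the fish and their polyadenylated RNA was sequenced. All 13 libraries form 1 group without a control, and the age of the fish and the number of fish behind a library are not given in the sources used here. The p-values below therefore concern relations and differences among these libraries, with the library as the unit. A letter in the sample descriptions, d for 6 libraries and c for 7, is not explained and was treated as a possible library batch.

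CD4 and CD8 are the coreceptors with which a T cell helps its antigen receptor to hold MHC molecules, class II in the case of CD4 and class I in the case of CD8. CD8 is a dimer of an alpha and a beta chain, encoded by cd8a and cd8b, and in mammals the tails of CD4 and CD8 alpha carry the kinase Lck to the receptor. In the thymus of mammals, immature T cells pass through a stage at which they carry both coreceptors, and mature cells keep 1 of them. CD28 is the receptor for the costimulatory ligands B7-1 and B7-2, and it adds the further signal that a mature T cell needs for activation. In zebrafish cd4-1 is known from T cells and also from mononuclear phagocytes.

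Total counts ranged from 8166453 to 12297780 over the 12 libraries used here. The column hMYC-1, with 51808498 counts, was set aside, because its counts could not be taken as independent of hMYC-10 to hMYC-14. Over the 11072 genes with a low to modest sum over these 5 libraries, 10 counts or more, hMYC-1 fell short of that sum in 1.45%. The sums for cd4-1, cd8a and cd8b, 25925, 14888 and 20415 counts, lay above the range of these genes, so that this share does not cover them. Their hMYC-1 counts did fall short, being 0.887 of the sum for cd4-1, 0.792 for cd8a and 0.822 for cd8b. For cd28, which lay within the range, the hMYC-1 count was 594 against a sum of 565. The letters below therefore hold 6 libraries each, hMYC-9 to hMYC-14 in d and hMYC-2, hMYC-3, hMYC-4, hMYC-5, hMYC-6 and hMYC-8 in c.

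Transcripts of both coreceptors were present in every leukemia, at levels that differed widely between leukemias, and cd28 varied in another order. Levels are given as CPM, counts scaled by the TMM-normalised library total, and were compared between libraries only, because CPM is not corrected for transcript length. The level of cd4-1 was 15.7 CPM in the lowest library, hMYC-5, had a median of 509 CPM and reached 1075 CPM in hMYC-2. For cd8a the lowest level was 4.91 CPM in hMYC-5, the median 258 CPM and the highest 334 CPM in hMYC-2. The cd8b level was 14.04 CPM in hMYC-5 at the low end, 384 CPM at the median and 1110 CPM in hMYC-2 at the high end. In all 3 genes the same libraries stood at the bottom in the same order, hMYC-5 below hMYC-3 below hMYC-4. The library at the top depended on the scaling, since with plain library totals hMYC-9 was highest for cd4-1 with 803 CPM and hMYC-6 for cd8a with 323 CPM.

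In hMYC-3 cd4-1 had 95.8 CPM, cd8a 21.2 CPM and cd8b 46.1 CPM. In hMYC-4 cd4-1 had 162 CPM, cd8a 83.4 CPM and cd8b 145 CPM. The same libraries held the most transcripts of PAX5, a transcription factor of B cells, with 290 CPM in hMYC-3, 250 CPM in hMYC-5 and 156 CPM in hMYC-4. Of the other 9 libraries hMYC-12 had the most PAX5, 53.9 CPM, and hMYC-11 had 0 counts of it. The summed level of the B cell genes used below was also highest in hMYC-3. Among these genes ighm was highest in hMYC-14 with 203 CPM and cd40 in hMYC-2 with 182 CPM. The part of B lineage cells in the low coreceptor levels was not tested. In bulk RNA fewer cells that express a gene and less RNA per cell cannot be told apart.

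The level of cd28 was 1.13 CPM in hMYC-10, which rested on 13 counts (95% Poisson interval 6.92 to 22.2). Its median was 4.32 CPM and its highest level 37.1 CPM in hMYC-12, with hMYC-4 next at 27.2 CPM and hMYC-14 at 15.7 CPM. The order of the libraries was thus another one than for the coreceptors, since hMYC-4 was among the lowest for cd4-1, cd8a and cd8b and next to the top for cd28. On the log2 scale the levels averaged 8.34 ± 1.68 for cd4-1, 7.16 ± 1.89 for cd8a, 7.99 ± 1.76 for cd8b and 2.32 ± 1.63 for cd28 (log2 CPM, SD, n = 12). These SDs were larger than those of 89.6%, 92.4%, 90.7% and 88.8% of the 13663 genes that passed the filter on low counts, in the same order of genes. All 4 genes passed that filter.

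**Figure D1:**
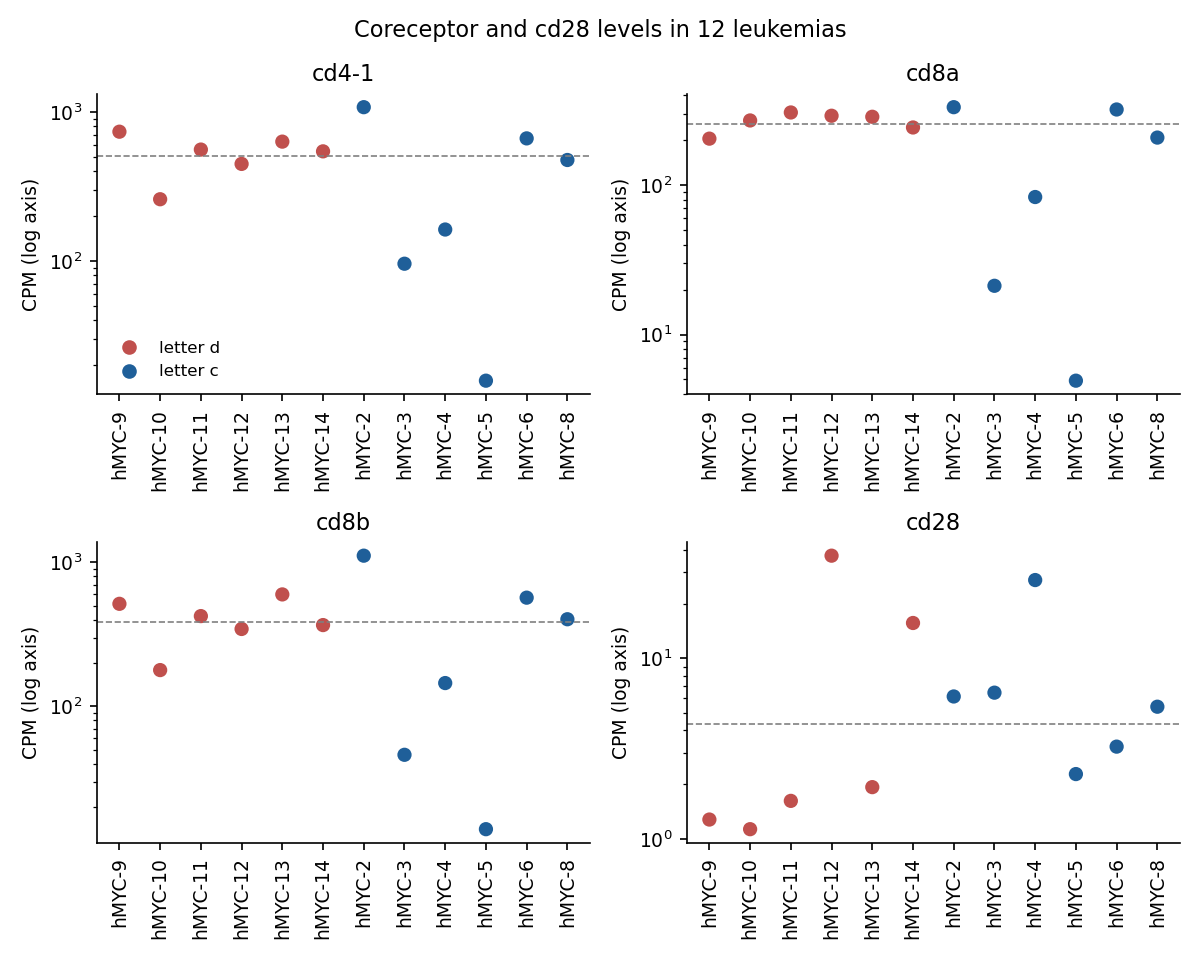
Level of cd4-1, cd8a, cd8b and cd28 in 12 leukemia libraries, as CPM on a log axis, with letter d libraries on the left and letter c libraries on the right and the median as a dashed line. The 3 coreceptor genes are lowest in hMYC-5, hMYC-3 and hMYC-4, whereas cd28 is highest in hMYC-12, hMYC-4 and hMYC-14.

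Leukemias were sorted by whether they expressed both coreceptors, 1 of them or neither, taking 1 CPM or more as expressed. By this measure 12 of 12 libraries expressed both cd4-1 and cd8a, and 0 expressed cd4-1 alone, cd8a alone or neither. The same 12 libraries reached 1 CPM for cd8b and for cd28. With a threshold of 5 CPM, 11 libraries expressed both coreceptors and 1, hMYC-5, expressed cd4-1 alone, because cd8a lay at 4.91 CPM there. At that threshold cd28 was expressed in 6 libraries. In hMYC-5 the coreceptor counts were small, with 186 counts of cd4-1, 58 of cd8a (95% Poisson interval 44.0 to 75.0) and 166 of cd8b. In the same library the neutrophil gene lyz had 129 counts and the globin gene hbaa1 204 counts. These were 10.9 and 17.3 CPM, near the medians of the 12 libraries, 10.8 CPM for lyz and 16.5 CPM for hbaa1. The part of residual non-leukemic cells in the coreceptor counts of hMYC-5 was not tested. Bulk RNA also cannot tell cells that carry both coreceptors from a mixture of cells that carry 1 each.

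The next question was whether the 4 genes moved together between leukemias. Relations were computed on log2 CPM, as Spearman's rho and Pearson's r, each tested two-sided by permuting 1 of the measures 100000 times, and p-values were adjusted over 17 relations. A library was set apart from a relation where a gap of at least 0.4 of the range divided it from the others, which happened to hMYC-5 for cd4-1 and for the T score below. The closest pair was cd4-1 and cd8b, with r = 0.982 over 11 libraries. Its permutation p was 1e-05, the smallest that this number of resamples can give, and 0.00017 after adjustment. Its rho was 0.955 (adjusted permutation p = 0.00068). Without hMYC-3 and hMYC-4, the 2 farthest libraries, r was 0.971 (exact permutation p = 0.000353). It also held within the letters, with r = 0.959 in letter d (exact permutation p = 0.00694, n = 6) and 0.989 in letter c (exact permutation p = 0.00833, n = 5, the smallest p that 5 libraries allow). Among all 13662 other filtered genes, cd8b was the gene most like cd4-1 and cd4-1 the gene most like cd8b.

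The gene cd8a followed its partner chain less closely than cd4-1 did. Over 12 libraries cd8a and cd8b gave r = 0.945, with a permutation p of 0.00019, or 0.00161 adjusted. Their rho was 0.762, with a permutation p of 0.00559, or 0.0475 adjusted. Without hMYC-3 and hMYC-5, the 2 farthest libraries, r was 0.66 (permutation p = 0.0459). Within letter d r was -0.158 (exact permutation p = 0.731, n = 6) and within letter c 0.988 (exact permutation p = 0.00139, n = 6). For cd4-1 and cd8a r was 0.860 over 11 libraries, with a permutation p of 0.00258, or 0.0146 adjusted. The rho of 0.627 did not pass after adjustment (permutation p = 0.0445, 0.151 adjusted), and r was 0.221 without hMYC-3 and hMYC-4 (exact permutation p = 0.57). Within the letters r was -0.359 in letter d (exact permutation p = 0.469, n = 6) and 0.957 in letter c (exact permutation p = 0.00833, n = 5). Letter c holds the 3 libraries with the lowest coreceptor levels.

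Both relations of cd8a rested on hMYC-3, hMYC-4 and hMYC-5. Without these libraries, a choice made after the values were seen, r over the 9 others was 0.251 for cd4-1 and cd8a (exact permutation p = 0.52, adjusted p = 0.901) and 0.347 for cd8a and cd8b (exact permutation p = 0.371, adjusted p = 0.901). For cd4-1 and cd8b it was still 0.972 (exact permutation p = 0.000344, adjusted p = 0.00586), with rho = 0.917 (adjusted exact permutation p = 0.0223). With 1 of the 3 low libraries left out, others of them met the gap rule and were set apart as well. These were hMYC-5 in the fit without hMYC-3, both hMYC-3 and hMYC-5 in the fit without hMYC-4, and hMYC-3 in the fit without hMYC-5. The r of cd8a and cd8b was then 0.659, 0.234 and 0.660 in these 3 fits, over 10, 9 and 10 libraries, and no longer passed (adjusted permutation p = 0.214, 0.88 and 0.141, the second one exact). For cd4-1 and cd8a it was 0.726, 0.142 and 0.727 over the same numbers of libraries (adjusted permutation p = 0.214, 0.88 and 0.118, the second one exact). With only the 1 library left out and none set apart, r over 11 libraries was 0.931, 0.943 and 0.872 for cd8a and cd8b, and 0.953, 0.951 and 0.860 for cd4-1 and cd8a, in the same order.

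Among those 9 libraries the level of cd8a hardly varied, from 205 CPM in hMYC-9 to 334 CPM in hMYC-2, a 1.63-fold range. Over the same libraries cd4-1 ranged 4.14-fold, from 259 CPM in hMYC-10 to 1075 CPM in hMYC-2, and cd8b 6.22-fold, from 178 CPM in hMYC-10 to 1110 CPM in hMYC-2. The SD of log2 CPM there was 0.26 for cd8a, 0.56 for cd4-1, 0.71 for cd8b and 1.65 for cd28.

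The level of cd28 was next set against those of the coreceptors. In no pair did r pass the threshold. It was -0.271 with cd4-1 (permutation p = 0.427, adjusted p = 0.558), 0.0129 with cd8a (permutation p = 0.969, adjusted p = 0.987) and 0.0052 with cd8b (permutation p = 0.987, adjusted p = 0.987), over 11, 12 and 12 libraries. With hMYC-5 included r of cd4-1 and cd28 was 0.005 over 12 libraries. The signs of the values for cd8a and cd8b depended on the scaling, being -0.014 and -0.037 with library totals.

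**Figure D2:**
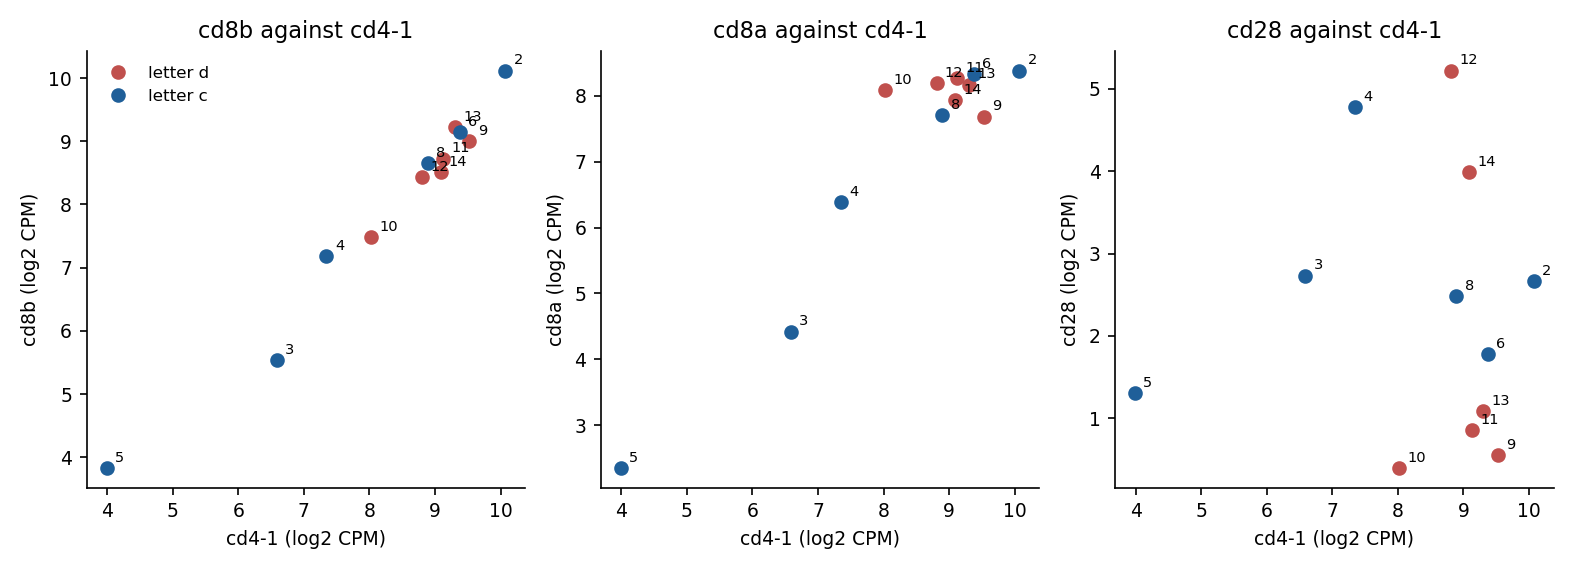
The level of cd8b, cd8a and cd28 against that of cd4-1 in 12 leukemia libraries, all in log2 CPM, with the number of the library title beside each point and letters d and c in colour. The points for cd8b lie along a line over the whole range, those for cd8a level off among the 9 libraries with high cd4-1, and those for cd28 show no order.

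The balance of the coreceptors was described by the ratio of cd4-1 counts to cd8a counts within a library, which does not depend on scaling. Transcript lengths were not available for the build of the table, so that a ratio above 1 does not say that cd4-1 molecules outnumbered cd8a molecules, and ratios were compared between libraries only. The ratio was 0.955 in hMYC-10 (95% exact binomial interval 0.908 to 1.0), had a median of 2.21 over the 12 libraries and reached 4.52 in hMYC-3 (3.93 to 5.21). The intervals cover counting error only. Other high ratios were 3.59 in hMYC-9 (3.44 to 3.74), 3.22 in hMYC-2 (3.06 to 3.39) and 3.21 in hMYC-5 (2.38 to 4.38). The remaining libraries had 2.28 in hMYC-8, 2.23 in hMYC-14, 2.19 in hMYC-13, 2.06 in hMYC-6, 1.95 in hMYC-4, 1.82 in hMYC-11 and 1.53 in hMYC-12. The interval of hMYC-10 overlapped that of no other library. That of hMYC-4 (1.79 to 2.12) overlapped those of hMYC-11 (1.74 to 1.9), hMYC-6 (1.98 to 2.15) and hMYC-13 (2.11 to 2.29), whereas those of hMYC-11 and hMYC-6 did not overlap each other. Thus a leukemia with few coreceptor transcripts could have a high ratio, as hMYC-3 and hMYC-5 had, or one below the median, as hMYC-4 had.

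The ratio of cd8b to cd8a, the 2 chains of CD8, varied over a 5.07-fold range, close to the 4.73-fold range of cd4-1 to cd8a. It was lowest in hMYC-10 with 0.657 (0.621 to 0.694) and highest in hMYC-2 with 3.33 (3.17 to 3.50), with a median of 1.84. The leukemia hMYC-10 thus had the lowest cd4-1 and the lowest cd8b relative to cd8a, with 2983 counts of cd4-1, 2052 of cd8b and 3125 of cd8a. The ratio of cd4-1 to cd8b varied least, by 2.15-fold, from 0.968 in hMYC-2 to 2.08 in hMYC-3.

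**Figure D3:**
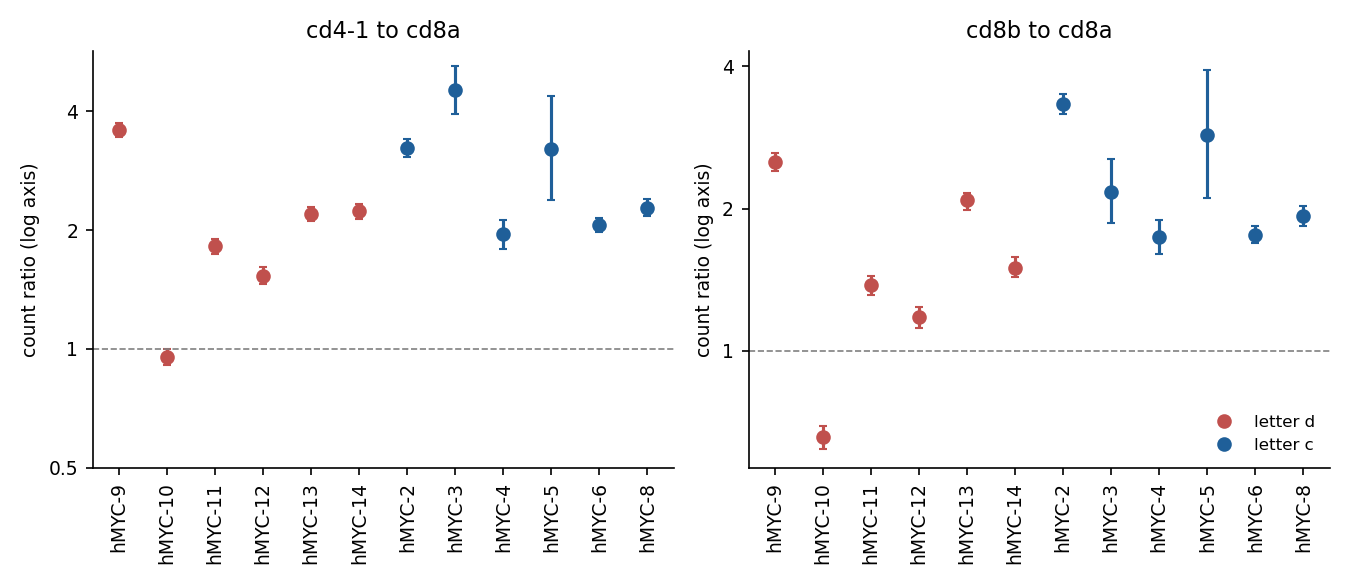
Ratio of cd4-1 counts and of cd8b counts to cd8a counts in 12 leukemia libraries, on a log axis, with letter d libraries on the left and letter c libraries on the right. Bars are 95% exact binomial intervals, which cover counting error only, and the dashed line marks equal counts. Both ratios are lowest in hMYC-10, at 0.955 and 0.657.

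The coreceptors were next set against lck itself, whose promoter drove the reporter used for sorting and whose product in mammals binds CD4 and CD8 alpha. This comparison was chosen after the values were seen. The level of lck was 44.8 CPM in hMYC-5 at the lowest, 1255 CPM at the median and 2673 CPM in hMYC-2 at the highest, a 59.6-fold range. Per 100 lck counts there were 10.9 cd8a counts in hMYC-5 at the low end, 19.8 at the median and 26.9 in hMYC-6 at the high end, a 2.46-fold range, whereas the cd8a level itself ranged 68.0-fold. The range per lck count was 3.48-fold for cd8b and 4-fold for cd4-1, against 79.1-fold and 68.3-fold for their levels. Of the filtered genes other than lck, 5 had a smaller SD of the log2 ratio to lck than cd8a, 22 a smaller one than cd8b and 19 a smaller one than cd4-1. Among the 9 libraries without hMYC-3, hMYC-4 and hMYC-5, r with lck was 0.402 for cd8a, 0.644 for cd4-1 and 0.680 for cd8b, given as a description. In these 9 libraries cd8a ranged from 12.5 counts per 100 lck counts in hMYC-2 to 26.9 in hMYC-6, while its level ranged 1.63-fold. Dividing by lck thus did not narrow the range of cd8a there, but it narrowed those of cd8b and cd4-1. For cd8b the values were 13.6 in hMYC-10 to 47.5 in hMYC-6, a 3.48-fold range, against 6.22-fold for its level. For cd4-1 they were 19.8 in hMYC-10 to 55.6 in hMYC-6, while its level ranged 4.14-fold. Over all 12 libraries the highest cd4-1 value relative to lck was that of hMYC-3, with 79.3 counts per 100 lck counts. The lowest was that of hMYC-10, with 19.8.

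Relative to lck cd28 ranged 89.4-fold, from 0.0864 counts per 100 lck counts in hMYC-10 to 7.73 in hMYC-4. The 3 highest values of cd28 per lck were those of hMYC-4, hMYC-3 with 5.35 and hMYC-5 with 5.09, the libraries with the lowest coreceptor levels, followed by hMYC-12 with 3.04. However, hMYC-4, hMYC-3 and hMYC-5 also had the least lck, with 352, 121 and 44.8 CPM, and a low lck count raises every ratio to it. The cd28 level in hMYC-5 was 2.28 CPM, below its median of 4.32 CPM. Of the filtered genes other than lck, 86.5% had a smaller SD of the log2 ratio to lck than cd28.

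**Figure D4:**
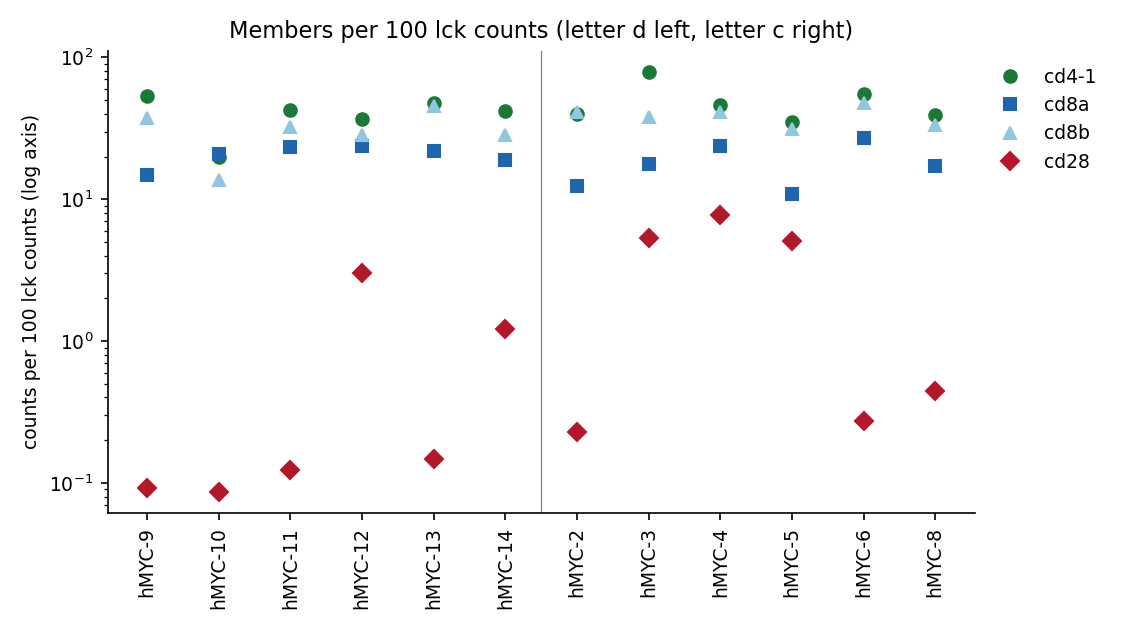
Counts of cd4-1, cd8a, cd8b and cd28 per 100 counts of lck in 12 leukemia libraries, on a log axis, with letter d libraries left of the grey line and letter c libraries right of it. The coreceptor genes stay between 10.9 and 79.3 counts per 100 lck counts in every library, and cd28 spreads from 0.0864 to 7.73.

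The coreceptors were compared with the wider T and B cell programs through list scores, the mean log2 CPM of a list of genes. The T score used 16 genes, mainly of the T cell receptor and its signalling. Among them were the transcription factor genes GATA3 and TCF7, which also stand in the list of lineage factors below. The B score used 11 B cell genes. No coreceptor or cd28 was in either list, while lck was in the T list. Over 11 libraries r with the T score was 0.783 for cd8a (permutation p = 0.00869, adjusted p = 0.0295), 0.717 for cd8b (permutation p = 0.0172, adjusted p = 0.0434) and 0.682 for cd4-1 (permutation p = 0.0216, adjusted p = 0.046). None of the 3 values of rho passed 0.05 after adjustment, with 0.682 for cd8a (permutation p = 0.0258, adjusted p = 0.146) and 0.264 for both others (permutation p = 0.434, adjusted p = 0.511). Against the B score r was -0.687 for cd8a (permutation p = 0.00594, adjusted p = 0.0252), -0.646 for cd8b (permutation p = 0.0179, adjusted p = 0.0434) and -0.652 for cd4-1, which missed the threshold (permutation p = 0.0282, adjusted p = 0.0532). These relations came from letter c, where r with the B score was -0.818 for cd8a (exact permutation p = 0.0625, n = 6), while in letter d it was 0.350 (exact permutation p = 0.508, n = 6). Without hMYC-3, hMYC-4 and hMYC-5 r with the B score was 0.296 for cd8a, 0.161 for cd8b and 0.050 for cd4-1, and r with the T score was 0.378, 0.249 and 0.220 (every adjusted exact permutation p = 0.901, n = 9).

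Within the T list, 12 of 16 genes had a positive r with cd8a and 10 an r above 0.7, with a median of 0.838. Over all genes tested 5.69% had an r above 0.7 and the median was 0.006. The most alike were cd247, the signalling chain of the receptor complex (r = 0.986), and skap1, an adaptor of receptor signalling (r = 0.983). At the other end stood themis2 (r = -0.477) and the adaptor gene lcp2b (r = -0.300). Over the 9 libraries without the 3 low ones r was 0.296 for cd247 and 0.180 for skap1. There 0 of the 16 genes had an r above 0.7 with cd8a, which 1.51% of all genes tested had.

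Of 20 filtered genes known to act in coreceptor choice and T lineage fate, 13 had a positive r with cd8a, 7 an r above 0.7 and 4 an r below -0.5. Over all genes tested 50.4% had a positive r, 5.69% an r above 0.7 and 2033 of 13663 an r below -0.5. RUNX3, which in mouse keeps CD8 expression on, had an r of 0.964 with cd8a and ranged from 56.2 CPM in hMYC-5 to 2855 CPM in hMYC-10. The gene tox2 (r = 0.979), of the same family as TOX, stood beside it. TOX, a nuclear factor needed in mouse for CD4 lineage development, went the other way (r = -0.801), with 151 CPM in hMYC-9 at the lowest and 378 CPM in hMYC-5 at the highest, as did rorca, a nuclear receptor gene (r = -0.675). With cd4-1 r over 12 libraries was 0.903 for RUNX3, 0.908 for tox2, -0.867 for TOX and -0.595 for rorca. These relations were thus not particular to cd8a. ZBTB7B encodes ThPOK, the factor that in mouse commits cells to the CD4 lineage. Its level was 0.504 CPM in hMYC-13 at the lowest and 13.7 CPM in hMYC-12 at the highest. Over the 9 libraries without the 3 low ones r with cd8a was -0.118 for RUNX3, 0.408 for tox2, 0.498 for TOX and 0.228 for rorca, so that the sign turned for RUNX3, TOX and rorca.

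Of 11 filtered genes of costimulation and inhibition, 2 had an r above 0.7 with cd8a, cd226 (r = 0.960), an activating receptor gene, and the adaptor gene grap2b (r = 0.842), while havcr1 had the lowest r (-0.515). Of 9 filtered genes of immature T cells and recombination, 3 had an r above 0.7 with cd8a. RAG1, the recombinase gene, gave 0.945 and il7r, the receptor gene for interleukin 7, 0.919, and at the other end stood klf2a (-0.765) and klf2b (-0.619), genes of a factor that in mouse guides the exit of T cells from the thymus. Of 11 B cell genes 9 had an r below -0.5 with cd8a, the lowest being BTK (-0.762) and ight (-0.710), and cd40 had the highest (0.092). An r below -0.5 was found for 2033 of all 13663 genes. Over the 9 libraries without hMYC-3, hMYC-4 and hMYC-5 r with cd8a was 0.296 for cd226, -0.057 for grap2b and -0.330 for havcr1. There it was -0.086 for RAG1, -0.179 for il7r, 0.341 for klf2a, 0.087 for klf2b, 0.135 for BTK, 0.304 for ight and 0.413 for cd40. The sign thus turned for grap2b, RAG1, il7r, klf2a, klf2b, BTK and ight, and the median r of the 11 B cell genes was 0.304, against -0.677 over 12 libraries. The summed level of 12 matched B cell genes was 72.4 to 1277 CPM in letter d and 154 to 4268 CPM in letter c.

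The ratio of cd4-1 to cd8a was tested against RUNX3 and ZBTB7B. With ZBTB7B r was 0.0573 over 12 libraries, with a permutation p of 0.86 (0.975 adjusted), and rho was 0.042 (0.906 adjusted). With RUNX3 r was -0.521, with a permutation p of 0.0903 (0.14 adjusted), and rho was -0.503 (0.28 adjusted), so neither relation passed the threshold. Within the letters r with RUNX3 was -0.591 in d (exact permutation p = 0.185, n = 6) and -0.439 in c (exact permutation p = 0.41, n = 6). The library with the lowest ratio, hMYC-10, had the most RUNX3.

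Because cd4-1 is also a gene of phagocytes, it was set against a score of 11 myeloid genes. Over 11 libraries r was -0.183, with a permutation p of 0.589 (0.715 adjusted), and rho was -0.255 (0.511 adjusted). With hMYC-5 included r was 0.16 over 12 libraries. Within the letters it was 0.358 in letter d (exact permutation p = 0.547, n = 6) and -0.784 in letter c (exact permutation p = 0.1, n = 5). In sum the 11 genes held 79.8 to 1304 CPM in letter d and 194 to 1152 CPM in letter c. The highest single values in the list were those of CEBPB, with 1097 CPM in hMYC-2. The macrophage gene marco was between 0.332 and 17.4 CPM and csf1ra between 0.423 and 5.24 CPM.

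The pattern of cd28 was shared by another set of genes. Of 11 filtered genes of costimulation and inhibition, 10 had a positive r with cd28 and 5 an r above 0.7. Over all genes tested 48.6% had a positive r with cd28 and 3.77% an r above 0.7. The highest were cd27, a costimulatory receptor of the TNF receptor family (r = 0.951), and cd40lg, the ligand that helper T cells show to B cells (r = 0.940). Like cd28, cd27 was highest in hMYC-12 with 31.2 CPM and hMYC-4 with 29.3 CPM, and it was at 0.0752 CPM in hMYC-9. The gene cd40lg had 18.3 CPM in hMYC-12 and 14.1 CPM in hMYC-4. Both were near 0 in hMYC-9, hMYC-10, hMYC-11 and hMYC-13, with 1, 1, 1 and 3 counts of cd27 and 4, 6, 2 and 5 of cd40lg. The low end of these relations is thus imprecise. Other list genes with a high r were ZBTB7B (0.887), foxp3a, the gene of the regulatory T cell factor (0.884), the perforin gene prf1.1 (0.883) and the receptor chain gene cd247l (0.906). These genes were singled out after their values were seen. Their r over the 9 libraries without hMYC-3, hMYC-4 and hMYC-5 was 0.944 for cd27, 0.954 for cd40lg, 0.900 for ZBTB7B, 0.920 for foxp3a, 0.868 for prf1.1 and 0.969 for cd247l.

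The level of foxp3a was 0.376 CPM in hMYC-9 at the lowest, 11.3 CPM at the median and 97.4 CPM in hMYC-4 at the highest, with 84.4 CPM in hMYC-12 and 23.0 CPM in hMYC-14. The pair hMYC-4 and hMYC-12 was thus highest for both genes, while hMYC-3 and hMYC-2 had more foxp3a than hMYC-14, with 29.0 and 25.4 CPM, but less cd28, with 6.46 and 6.15 CPM. With the T score r of cd28 was 0.374 over 11 libraries (permutation p = 0.261, adjusted p = 0.37), and with the B score it was 0.547 over 12 (permutation p = 0.0688, adjusted p = 0.117). In letter d alone r of cd28 with the T score was 0.981 (exact permutation p = 0.0153, n = 6), and it was -0.215 in letter c (exact permutation p = 0.667, n = 5). Over the 9 libraries it was 0.906 (exact permutation p = 0.000835, adjusted p = 0.0071). With the B score r there was 0.710 (exact permutation p = 0.0322, adjusted p = 0.182). The median r of single genes with cd28 over these 9 libraries was 0.24 for the T list and 0.679 for the B list. The 9-library value with the T score thus did not hold for the T list gene by gene. The T list contains cd247l, lcp2b, themis2 and ptprc, which had an r of 0.814 to 0.906 with cd28.

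Some markers of other cells moved with cd28 as well. Of 5 epithelial genes 4 had an r above 0.7 with cd28, with epcam at 0.810, and their summed level was 3.39 to 82.9 CPM in letter d, highest in hMYC-12, and 9.31 to 53.9 CPM in letter c. Of 3 filtered genes of NK-like cells 2 had an r above 0.7. The 8 matched genes summed to 2.03 to 370 CPM in letter d and 24.6 to 163 CPM in letter c. This sum was highest in hMYC-10, the library with the least cd28. Nearly all of it there was il2rb, with 369 CPM and an r of 0.457 with cd28. For the 11 myeloid genes the median r with cd28 was 0.515, for the 11 B genes 0.515 and for the 2 erythroid genes 0.608. Over all genes tested this median was -0.014. A positive r with cd28 was found for 11 of 11 B genes, 10 of 11 myeloid genes and 5 of 5 epithelial genes. It was thus not particular to the genes of costimulation and inhibition. The 4 matched genes of thymic epithelium summed to 1.42 to 162 CPM in letter d and 1.4 to 270 CPM in letter c. Of these dll4 passed the filter, with 269 CPM in hMYC-8 at the highest and an r of -0.483 with cd28. The 2 of exocrine pancreas summed to 0.101 to 20.1 CPM in letter d and 0.524 to 48.2 CPM in letter c. The matched muscle and thrombocyte genes stayed at or below 1.61 CPM in sum in every library. The part of other cells in the cd28 level was not tested.

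**Figure D5:**
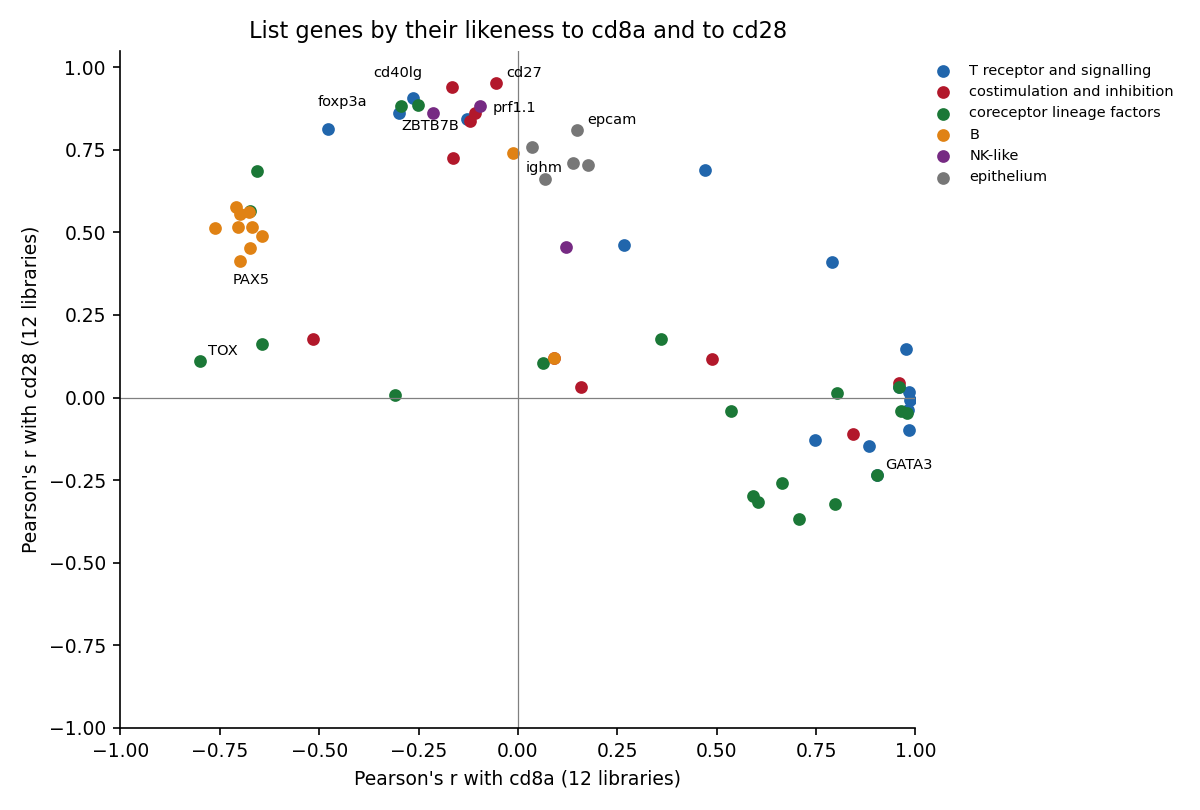
Each point is a gene of a list, placed by Pearson's r of its log2 CPM with that of cd8a and with that of cd28 over 12 libraries, and coloured by list. Many T receptor genes and lineage factors gather at a high r with cd8a and an r near 0 with cd28. The genes cd27, cd40lg, foxp3a and ZBTB7B lie at an r of 0.884 to 0.951 with cd28 and of -0.294 to -0.055 with cd8a. Over the 9 libraries without hMYC-3, hMYC-4 and hMYC-5 their r with cd8a was 0.198, 0.164, 0.252 and -0.091, in the same order.

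Over all filtered genes with a symbol, those most like each member were listed as a description, and no common function is implied. After cd8b, cd4-1 was most like si:ch73-109i22.2, ANPEP, LRP1 and rorc, with an r of 0.850, 0.796, 0.853 and 0.855 over the 9 libraries. For cd8a they were zgc:171686 (r = 0.994 over 12 libraries), cd247 (0.986), rorc (0.985), si:dkey-11f4.20 (0.984) and skap1 (0.983). Of these only zgc:171686 kept a high r, 0.849, over the 9 libraries, the other 4 having 0.180 to 0.377. For cd8b they were cd4-1, LRP1 (0.979), si:ch73-109i22.2 (0.978), ZNRF1 (0.975) and rorc (0.971). The genes most like cd28 were si:dkeyp-1h4.9 (0.976), herc56.3 (0.972), ponzr6 (0.972), si:dkey-58f10.3 (0.969) and si:dkey-211g8.8 (0.968), with an r of 0.971 to 0.989 over the 9 libraries.

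The last comparison asked whether the genes differed between the description letters, which could mark a batch. Across all genes, edgeR's quasi-likelihood test called 47 of 13663 genes between letters (0.344%), and 0 of the 4 genes described here was among them, by this test or by DESeq2, which called 8.48% of genes. For cd4-1 the levels were 259 to 736 CPM with a median of 551 CPM in letter d, and 15.7 to 1075 CPM with a median of 319 CPM in letter c. For cd8a they were 205 to 307 CPM (median 280 CPM) in letter d and 4.91 to 334 CPM (median 146 CPM) in letter c. The levels of cd8b were 178 to 598 CPM (median 394 CPM) in letter d and 14.04 to 1110 CPM (median 274 CPM) in letter c. Those of cd28 were 1.13 to 37.1 CPM (median 1.78 CPM) in letter d and 2.28 to 27.2 CPM (median 5.77 CPM) in letter c. The letters overlapped for all 4 genes.

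The log2 fold change of letter d over letter c was 0.72 ± 0.73 SE for cd8a (edgeR adjusted p = 0.613), 0.35 ± 0.71 SE for cd4-1 (edgeR adjusted p = 0.817), 0.21 ± 0.95 SE for cd28 (edgeR adjusted p = 0.924) and 0.09 ± 0.77 SE for cd8b (edgeR adjusted p = 0.965). For cd28 this sign ran against the mean log2 CPM, 2.02 in letter d and 2.62 in letter c, and it turned to -0.96 without hMYC-12, the library with the most cd28. At an unadjusted p none of the 4 reached 0.05, the lowest being 0.338 for cd8a in edgeR and 0.299 for cd8a in DESeq2. The log2 ratio of cd4-1 to cd8a averaged 0.92 ± 0.64 in letter d and 1.45 ± 0.47 in letter c (SD, n = 6 each), a difference of -0.53 (two-sided exact permutation p = 0.134, over all splits, the smallest possible p being 0.00216). For cd8b to cd8a the averages were 0.51 ± 0.68 in letter d and 1.15 ± 0.39 in letter c, a difference of -0.64 (exact permutation p = 0.0649, n = 6 each).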

How the data were processed

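The authors deposited whole-number read counts per Ensembl gene for 13 libraries in 1 table, and each column name equals a sample title, so that 0 columns were left unmapped. Per the submitters' processing notes, bcl2fastq, STAR, Picard and featureCounts were used with the build GRCz10. Their versions and roles, the gene annotation and whether counting was stranded are not given in the sources used here, so counts of overlapping, antisense and near-identical genes are uncertain. Libraries were poly(A) selected with a stranded kit, per the labels' protocols. A gene name table named 26269 of the 32105 identifiers, some in the human form.

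From these counts, edgeR 4.0.16 (limma 3.58.1, R 4.3.3) gave TMM factors after filterByExpr on the letter, and the letter comparison used its quasi-likelihood test, with p-values adjusted by Benjamini-Hochberg and a threshold of 0.05. Log2 CPM used a prior count of 2, and count ratios an added count of 1. Each SE of a fold change is its size divided by the square root of F. Permutation tests sampled 100000 orders for 10 or more libraries and were exact below that. Named genes were mainly the 4 members, the genes of each list with the 2 highest and 2 lowest r with cd8a, and the 5 symbols most like each member. Others, such as PAX5, lyz, marco, CEBPB, cd27, foxp3a and trbc1, were named outside this rule, and not every gene it picks is named. The members and lists were chosen with earlier results of these data known. Alternatives were all 13 columns, library totals, a prior count of 0.5, no filter, upper quartile factors, DESeq2 1.42.0, other thresholds of expression, and leaving out each library. The tests were checked on simulated data. Python 3.11.15, numpy 2.4.6, pandas 2.3.3 and matplotlib 3.10.9 were used.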

Additional observations from a re-analysis of the deposited data

How the results depend on the processing

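Results were recomputed 369 times under alternatives, and 275 of these values had the sign and the call reported above or, for a count, lay within 1.5 times of it. The relation of cd4-1 and cd8b passed in all settings, with r from 0.971 to 0.990 when 1 library was left out. With all 13 columns r was -0.015 for cd8b and cd28 and -0.673 for cd4-1 and the B score, which then passed, and 0 genes were called between letters (2401 at an unadjusted p under 0.05). With library totals r was -0.014 for cd8a and cd28, -0.037 for cd8b and cd28, 0.642 for cd4-1 and 0.668 for cd8b with the T score, which no longer passed, and -0.691 for cd4-1 and the B score, which passed. Library totals also put hMYC-9 above hMYC-2 as the highest library for cd4-1 and hMYC-6 for cd8a. With a prior count of 0.5 r with the T score was 0.642 for cd4-1, 0.731 for cd8a and 0.683 for cd8b, and r of cd8b with the B score was -0.631, none of which passed. No filter gave 7 genes called between letters and DESeq2 gave 1159, whereas upper quartile factors gave 46. Both coreceptors were expressed in 12 of 12 libraries also with a threshold of 10 counts and with library totals.

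Without hMYC-3, hMYC-4 and hMYC-5, added after seeing the data, r was 0.251 for cd4-1 and cd8a, 0.055 for cd4-1 and cd28, 0.347 for cd8a and cd8b, 0.220, 0.378, 0.249 and 0.906 for cd4-1, cd8a, cd8b and cd28 with the T score, 0.050, 0.296 and 0.161 for cd4-1, cd8a and cd8b with the B score, 0.078 for cd4-1 and the myeloid score, and -0.112 for the ratio and ZBTB7B. Fits that each left out 1 library gave r of 0.142 to 0.926 for cd4-1 and cd8a, 0.234 to 0.974 for cd8a and cd8b, -0.406 to 0.077 for cd8a and cd28, and -0.257 to 0.073 for cd8b and cd28. With the T score they gave 0.343 to 0.777 for cd4-1, 0.294 to 0.826 for cd8a, 0.352 to 0.803 for cd8b and 0.046 (without hMYC-14) to 0.626 for cd28. The relation with the T score still passed in 3 of 12 such fits for cd4-1, 9 of 12 for cd8a and 3 of 12 for cd8b. With the B score they gave -0.780 to -0.452 for cd4-1, -0.773 to 0.198 for cd8a and -0.714 to -0.301 for cd8b. The relation with the B score still passed in 9 of 12 fits for cd8a and in 4 of 12 for cd8b. For cd4-1 it missed the threshold in 10 of 12 fits. The ratio gave -0.233 to 0.145 with ZBTB7B and -0.627 to -0.214 (without hMYC-3) with RUNX3, and cd4-1 gave -0.408 to -0.104 with cd28 and -0.325 to -0.058 with the myeloid score. Libraries that met the gap rule in a fit were set apart there too. The difference in the ratio between letters was -0.713 (without hMYC-9, exact permutation p = 0.039) to -0.331, and 8 to 59 genes were called between letters. Log2 fold changes between letters were -0.96 (without hMYC-12) to 1.06 for cd28 and -0.17 to 0.81 for cd8b. The cause of these shifts was not tested. No paired analysis was possible because all libraries belong to 1 group.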

Other observations

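The relatives and neighbours of the 4 genes were described as well. A further CD4 gene, cd4-2.2 (ENSDARG00000073950), lies near cd4-1 in the RefSeq assembly GRCz12tu. The gene cd4-2.1, which lies between them there, was not matched to a single identifier of the count table. The level of cd4-2.2 ranged from 1.27 CPM in hMYC-5 to 15.0 CPM in hMYC-12. Its r over 12 libraries was 0.689 with cd4-1, 0.647 with cd8a and 0.574 with cd28. Over the 9 libraries without hMYC-3, hMYC-4 and hMYC-5 these values were 0.416, 0.25 and 0.821, so that r was then highest with cd28. The gene cd28l (ENSDARG00000069978), a relative of cd28, ranged from 0.301 CPM in hMYC-9 to 23.8 CPM in hMYC-12, with an r of 0.726 with cd28. In that assembly cd8b and cd8a are next to each other. The genes on either side of the pair, zmat1 and cast, had 9.55 to 21.0 CPM and 18.6 to 62.8 CPM, and an r of -0.409 and 0.027 with cd8a.

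The T cell receptor gene trbc1 (ENSDARG00000091233) did not share the narrow range of the coreceptors relative to lck. It had 1.53 counts per 100 lck counts in hMYC-8 and 68.4 in hMYC-10, a 44.8-fold range, so that hMYC-10, the leukemia with the lowest cd4-1 and cd8b per lck, had the most trbc1. RAG1 ranged 4.38-fold per lck count, from 222 counts per 100 lck counts in hMYC-5 to 973 in hMYC-11. RUNX3 ranged 3.07-fold, from 71.0 in hMYC-2 to 218 in hMYC-10, less than cd8b with 3.48-fold and cd4-1 with 4-fold. A narrow range per lck count was thus not particular to the coreceptors.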
